A study of Homo sapiens with 4 samples.

Results

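The 9 genes described here encode ATP-binding cassette (ABC) transporters that export drugs, drug conjugates or porphyrins: ABCB1, ABCG2, ABCC1, ABCC2, ABCC3, ABCC4, ABCC5, ABCC10 and ABCB6. They were chosen by symbol, as exporters linked to drug sensitivity, a readout named in the study's design, and all 9 had a row among the 60658 gene identifiers of the deposited tables. The data are mRNA sequencing libraries labelled HT29 and LIM1215, 2 established lines of human colorectal cancer cells. In each line 1 library came from cells given a negative control siRNA (NC) and 1 from cells given a small interfering RNA (siRNA) against TMEM161A (si2), a short RNA duplex that directs the degradation of the matching mRNA. TMEM161A encodes a transmembrane protein, and the study asked how it bears on the growth of colorectal cancer. The labels give no transfection time or dose. Each group had 1 library, so the differences within a line and between the control lines have no replicate check and no p-value. The knockdown was tested over both lines together, with each line as a pair of 1 NC and 1 si2 library.

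ABC exporters bind and hydrolyse ATP to move substrates out of the cell or into a compartment against a gradient. In the intestine, ABCB1, ABCG2 and ABCC2 sit in the apical membrane facing the lumen and limit drug absorption, whereas ABCC1 and ABCC3 export conjugates across the basolateral membrane. High levels of several of these pumps are known to lower the sensitivity of tumour cells to cytotoxic drugs.

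The unit of all levels is FPKM, a fragment count scaled to gene length and library size, so levels of different genes can be compared per length. Differences are given as FPKM ratios with a 95% counting interval, and as log2 ratios of FPKM plus a pseudocount of 1, which pull low genes toward 0. A gene was called where this log2 ratio reached 1 or −1 (2-fold). All 9 exporters had a mean FPKM of at least 1 and were read against the 14803 genes that passed this limit. The estimated depth was 18.1 to 21.6 fragments per kilobase for each unit of FPKM, which put the exporters between 110 fragments (ABCG2, LIM1215 si2) and 9144 fragments (ABCC3, LIM1215 si2). The intervals hold counting error alone and leave out how cultures of 1 group vary.

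The labels were checked first. TMEM161A was at 10.9% of its control level in HT29 si2 and at 19.4% in LIM1215 si2. Of 10 intestinal epithelial markers, all had an FPKM above 1 in LIM1215, but CDH17, KRT20, VIL1 and LGALS4 were below 1 in both libraries labelled HT29, where EPCAM, CDH1 and the keratins KRT8, KRT18 and KRT19 were present. VIL1, LGALS4, CDH17 and KRT20 are known to be expressed in HT29, so the identity of the libraries labelled HT29 is in doubt, and HT29 here means the line so labelled. Markers of other cell types were mostly below 1 in each library: 5 of 6 fibroblast, 3 or 4 of 5 immune and 4 of 4 endothelial markers, and PTPRC and CD3E were listed at 0 throughout. The exceptions above 1 in every library were CD68, at 6.22 in HT29 NC, 9.82 in HT29 si2, 58.1 in LIM1215 NC and 72.2 in LIM1215 si2, and COL1A1, at 17.6, 16.0, 4.83 and 8.56. LYZ was above 1 in both LIM1215 libraries, at 1.04 and 2.13.

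Promoter sequences are shown for the 3 exporters that were lower by the largest amounts in the knockdown libraries of both lines, ABCG2, ABCC4 and ABCB1, and for ABCC5, which was higher in both, to set side by side members with opposite signs. Each is the run of 250 bases upstream of the RefSeq start (GRCh38.p14) that coincides with the start of the canonical transcript, from chr4:88158640-88158889, chr13:95301452-95301701, chr7:87600885-87601134 and chr3:184017885-184018134, all on the minus strand. Capitals mark matches on either strand to a CCAAT box (CCAAT), a GC box (GGGCGG), an E-box (CACGTG), the core of the dioxin response element bound by the aryl hydrocarbon receptor (GCGTG) and the core of the antioxidant response element (TGACNNNGC).
ABCG2: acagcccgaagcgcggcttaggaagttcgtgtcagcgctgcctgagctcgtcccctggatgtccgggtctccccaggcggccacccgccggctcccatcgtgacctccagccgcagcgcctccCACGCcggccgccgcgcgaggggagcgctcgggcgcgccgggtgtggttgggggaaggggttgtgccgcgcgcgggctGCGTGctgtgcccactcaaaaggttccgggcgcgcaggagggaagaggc
ABCC4: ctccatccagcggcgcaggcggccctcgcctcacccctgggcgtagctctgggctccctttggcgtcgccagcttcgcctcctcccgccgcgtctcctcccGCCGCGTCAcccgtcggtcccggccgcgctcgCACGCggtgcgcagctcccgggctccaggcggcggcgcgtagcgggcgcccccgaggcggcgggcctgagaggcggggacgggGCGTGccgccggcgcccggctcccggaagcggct
ABCB1: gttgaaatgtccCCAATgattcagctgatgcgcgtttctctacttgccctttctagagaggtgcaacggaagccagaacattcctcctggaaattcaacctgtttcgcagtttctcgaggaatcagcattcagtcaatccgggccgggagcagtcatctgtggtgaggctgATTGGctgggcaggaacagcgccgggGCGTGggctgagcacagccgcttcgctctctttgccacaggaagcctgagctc
ABCC5: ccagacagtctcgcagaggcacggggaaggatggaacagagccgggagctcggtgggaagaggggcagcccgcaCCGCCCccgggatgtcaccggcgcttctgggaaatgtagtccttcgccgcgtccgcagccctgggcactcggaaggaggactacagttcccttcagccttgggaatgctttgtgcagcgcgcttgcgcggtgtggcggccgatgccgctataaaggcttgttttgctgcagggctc

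The GCGTG core occurred 2 times in the ABCG2 window, 2 times in ABCC4 and 1 time in ABCB1, and had no match in ABCC5. It occurs in 32.2% of all 34788 distinct RefSeq windows of this length, a share not matched for GC content. The GC content was 73.6% in the ABCG2 window, 80.4% in ABCC4, 55.6% in ABCB1 and 64.8% in ABCC5, beside a median of 58.0% over all windows. ABCB1 held 2 CCAAT boxes, a motif found in 32.0% of windows, and ABCC5 held 1 GC box, found in 42.6%. The antioxidant core, found in 10.9% of windows, was present 1 time in ABCC4. Among exporters not printed, the ABCB6 window held 1 CCAAT box, 2 GC boxes, 1 E-box and 1 antioxidant core that overlaps the E-box. The ABCC10 window held 1 E-box, 1 antioxidant core and 2 dioxin cores. ABCC2, also lower in the knockdown library of each line, held none of the 5 motifs. The printed windows were picked by their knockdown values, and a link between motifs and these values was not tested. E-boxes were found in 6.31% of windows. RefSeq windows matched 7 of the 9 exporters, without ABCC1 and ABCC3. ABCG2 had 5 windows, and ABCB1 and ABCC10 had 2 each, of which only the window at the canonical start was searched. Which start the cells used was not tested. AHR, which encodes the aryl hydrocarbon receptor, had an FPKM of 20.2 in HT29 NC and 19.5 in HT29 si2, and of 20.9 in LIM1215 NC and 20.7 in LIM1215 si2, so its own mRNA level was near even across the libraries.

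The exporters covered a wide range of levels within each library. In HT29 NC the order from high to low was ABCC2, ABCC1, ABCC3, ABCB6, ABCC10, ABCC4, ABCC5, ABCG2 and ABCB1, with FPKM from 55.6 to 2.40. In LIM1215 NC it was ABCC3, ABCC1, ABCC10, ABCC5, ABCC2, ABCC4, ABCB6, ABCB1 and ABCG2, with FPKM from 60.6 to 2.24. The broad exporters ABCB1 and ABCG2 thus held the lowest places in both control lines, while a conjugate exporter of the ABCC subfamily led each, ABCC2 in HT29 and ABCC3 in LIM1215. Some neighbours in this order had overlapping counting intervals: ABCC3 and ABCB6, and ABCG2 and ABCB1, in HT29 NC, and ABCC1, ABCC10, ABCC5 and ABCC2, each with the next, in LIM1215 NC. The summed FPKM of the 9 exporters was 181 in both controls, 188 in HT29 si2 and 207 in LIM1215 si2. On this scale the controls had near-equal sums, made up of different levels of single exporters. All genes together summed to an FPKM of 785861 in HT29 NC and 891114 in LIM1215 NC. As a share of that total the exporters were therefore lower in LIM1215 NC.

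**Figure D1:**
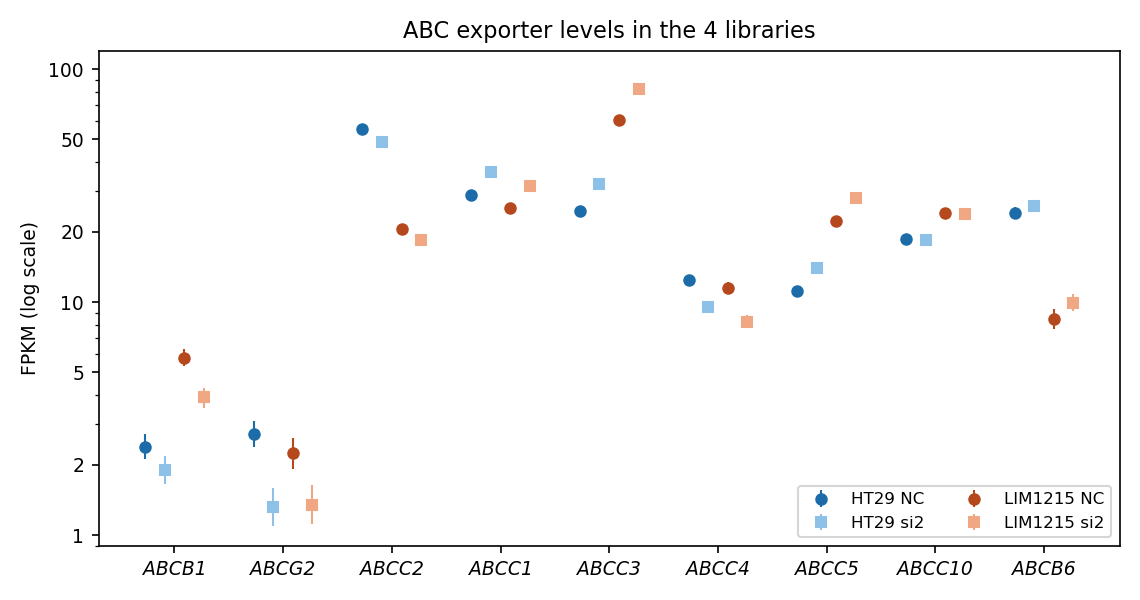
FPKM (log scale) of each exporter gene in the 4 libraries, circles for the control siRNA and squares for the TMEM161A siRNA, with 95% counting intervals as bars (n = 1 library per group). ABCB1 and ABCG2 lie below 6 in every library, ABCC2 and ABCB6 are higher in HT29, and ABCC3 is highest in LIM1215.

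ABCB1 encodes P-glycoprotein, an exporter of broad specificity for lipophilic drugs (ENSG00000085563, chromosome 7, 87503017 to 87713323, minus strand, GRCh38). Its FPKM was 2.40 in HT29 NC, 1.91 in HT29 si2, 5.77 in LIM1215 NC and 3.90 in LIM1215 si2. Both LIM1215 libraries lay above both HT29 libraries, and within each line the knockdown library was the lower. In such bulk libraries, fewer cells with a transcript and less of it per cell cannot be told apart. LIM1215 NC held 2.41 times the level of HT29 NC (2.07 to 2.81). The log2 ratio of 0.995 with the pseudocount stopped just short of the 2-fold limit. In HT29 the si2 level was 79.5% of control (66.0% to 96.1%), and in LIM1215 67.5% (59.0% to 76.9%).

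ABCG2, the breast cancer resistance protein, exports camptothecins such as the active form of irinotecan, a drug used in colorectal cancer (ENSG00000118777, chromosome 4, 88090150 to 88231628, minus strand). Its FPKM was 2.73 in HT29 NC, 1.32 in HT29 si2, 2.24 in LIM1215 NC and 1.35 in LIM1215 si2. Both knockdown libraries lay below both controls, whichever line they came from. In HT29 the si2 level was 48.3% of control (38.4% to 60.9%), and in LIM1215 60.2% (46.9% to 77.3%). These were the lowest shares of control among the 9 exporters in either line. Behind the values were about 232 (NC) and 114 (si2) fragments in HT29, and 163 and 110 in LIM1215. On the log2 scale with the pseudocount the values were −0.69 and −0.46, and 5.06% and 9.62% of the genes compared lay lower. The controls of the lines were closer, with LIM1215 at 82.2% of HT29 and an interval of 67.0% to 101% that includes no difference.

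ABCC2 (MRP2) moves glucuronide and glutathione conjugates, and platinum drugs among others, across the apical membrane (ENSG00000023839, chromosome 10, 99782640 to 99852594, plus strand). Its FPKM was 55.6 in HT29 NC, 48.5 in HT29 si2, 20.7 in LIM1215 NC and 18.4 in LIM1215 si2. The HT29 libraries were both well above the LIM1215 libraries. LIM1215 NC was at 37.2% of HT29 NC (35.4% to 39.0%), a log2 ratio of −1.39 and past 2-fold. The shift with the knockdown was small, to 87.2% of control in HT29 (84.2% to 90.4%) and 89.0% in LIM1215 (83.7% to 94.6%).

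ABCC3 (MRP3), a basolateral exporter of bile acids and glucuronides, showed the opposite line pattern (ENSG00000108846, chromosome 17, 50634777 to 50692253, plus strand). Its FPKM was 24.6 in HT29 NC, 32.0 in HT29 si2, 60.6 in LIM1215 NC and 82.1 in LIM1215 si2. LIM1215 was above HT29 and, within each line, the knockdown library above its control. LIM1215 NC held 2.46 times the HT29 NC level (2.35 to 2.57), a log2 ratio of 1.27 and past 2-fold. Relative to control, si2 was at 130% in HT29 (124% to 137%) and 135% in LIM1215 (131% to 140%).

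ABCC1 (MRP1), the exporter of glutathione conjugates and of leukotriene C4, differed little between the lines (ENSG00000103222, chromosome 16, 15949138 to 16143257, plus strand). Its FPKM was 28.9 in HT29 NC, 36.1 in HT29 si2, 25.3 in LIM1215 NC and 31.5 in LIM1215 si2. The knockdown library was the higher in each line, at 125% of control in both, with intervals of 120% to 130% in HT29 and 119% to 131% in LIM1215. LIM1215 NC was at 87.3% of HT29 NC (83.2% to 91.7%).

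ABCC4 and ABCC5 (MRP4 and MRP5) both export cyclic nucleotides and nucleotide analogues, among them metabolites of fluoropyrimidines, but had opposite signs under the knockdown. ABCC4 (ENSG00000125257, chromosome 13, 95019835 to 95301475, minus strand) had an FPKM of 12.4 in HT29 NC, 9.55 in HT29 si2, 11.5 in LIM1215 NC and 8.24 in LIM1215 si2. Both knockdown libraries were below both controls, at 76.8% of control in HT29 (71.1% to 83.0%) and 71.8% in LIM1215 (65.8% to 78.3%). The control levels of the lines were close, with LIM1215 at 92.2% of HT29 (85.4% to 99.6%).

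ABCC5 (ENSG00000114770, chromosome 3, 183919934 to 184017939, minus strand) had an FPKM of 11.1 in HT29 NC, 14.0 in HT29 si2, 22.3 in LIM1215 NC and 28.1 in LIM1215 si2. Here LIM1215 was above HT29, and the knockdown library above its control in each line. Relative to control, si2 was at 125% in HT29 (116% to 135%) and 126% in LIM1215 (119% to 133%). LIM1215 NC was at 200.4% of HT29 NC (187% to 215%), which the pseudocount placed at a log2 ratio of 0.94, short of 2-fold.

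ABCC10 (MRP7), an exporter of taxanes and lipophilic anions (ENSG00000124574, chromosome 6, 43427366 to 43450427, plus strand), had the smallest log2 ratios of the 9 under the knockdown in both lines, −0.02 and −0.01, before any correction for base composition. Its FPKM was 18.8 in HT29 NC, 18.5 in HT29 si2, 24.1 in LIM1215 NC and 23.9 in LIM1215 si2. Relative to control, si2 was at 98.7% in HT29 (92.7% to 105%) and 99.3% in LIM1215 (93.6% to 105%), and both intervals include no difference. With the trend on GC content and length taken off, the log2 ratios were −0.17 and −0.12, no longer the smallest in either line. An exon overlaps DLK2 on the opposite strand, and DLK2 had an FPKM of at most 0.805.

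ABCB6 carries porphyrins and stands apart in function from the plasma membrane drug pumps (ENSG00000115657, chromosome 2, 219209772 to 219218994, minus strand). Its FPKM was 24.2 in HT29 NC, 25.8 in HT29 si2, 8.47 in LIM1215 NC and 9.95 in LIM1215 si2. Both HT29 libraries lay above both LIM1215 libraries. LIM1215 NC was at 35.0% of HT29 NC (31.3% to 39.0%), a log2 ratio of −1.41 and the largest line difference of the 9. The si2 level was 106% of the HT29 control (99.0% to 114%), an interval that includes no difference, and 117% in LIM1215 (103% to 133%). Its exons overlap a protein-coding gene model on the same strand (ENSG00000284820) that had no value in the deposited data. The level of ABCB6 is therefore uncertain by what that model would take.

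Between the control libraries, 3 of the 9 exporters passed 2-fold, against 19.4% of all genes compared. Of these, 1 was higher in LIM1215, ABCC3, against 12.0% of genes, and 2 were lower, ABCC2 and ABCB6, against 7.42%. The median absolute log2 ratio of the exporters was 0.94, beside 0.42 over all genes, and the signed medians were −0.11 and 0.05. The counting interval excluded an equal level for 8 of 9 exporters, as it did for 79.2% of the 13822 genes with a transcript of at least 500 bases, so this share is near the background. Without the pseudocount, 5 exporters passed 2-fold, ABCB1 and ABCC5 in addition, against 24.2% of genes with an FPKM above 0 in both libraries. Cell type markers also differed in this comparison. Of the 10 epithelial markers, 9 were higher in LIM1215 NC and 1 lower, KRT19. Their summed FPKM was 3140 in HT29 NC and 8244 in LIM1215 NC, of which the general epithelial keratins KRT8 and KRT18 made up 2203 and 6081. The intestinal markers CDX2 (8.29 and 96.8) and VIL1 (0.0397 and 192) were also higher in LIM1215 NC, as was CD68. The part of these markers in the exporter differences was not tested.

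**Figure D2:**
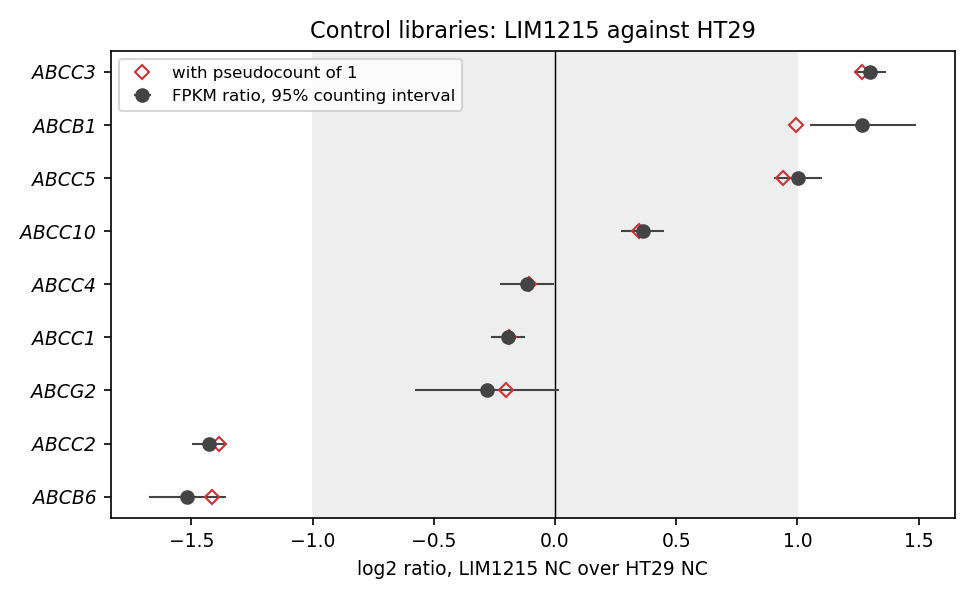
Log2 ratio of each exporter, LIM1215 NC over HT29 NC (1 library each), as the FPKM ratio with its 95% counting interval (filled circles) and with the pseudocount of 1 (open diamonds), the grey band marking less than 2-fold. ABCC3, with a log2 ratio of 1.27 on the pseudocount scale, lies above the band and ABCC2 (−1.39) and ABCB6 (−1.41) below it.

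Under the knockdown, none of the 9 exporters passed 2-fold in either line, against 3.80% of all genes in HT29 and 3.46% in LIM1215. In HT29 the log2 ratios ran from −0.69 (ABCG2) to 0.37 (ABCC3), and in LIM1215 from −0.47 (ABCB1) to 0.43 (ABCC3). The medians were −0.02 and −0.01, beside 0.04 and 0.02 over all genes, because exporters on either side of 0 balanced each other. The size of the difference, as the median absolute log2 ratio, was 0.30 for HT29 and 0.32 for LIM1215, beside 0.24 and 0.22 over all genes. Without the pseudocount ABCG2 passed 2-fold in HT29, with a log2 ratio of −1.05, against 7.58% of genes, and no exporter did in LIM1215, against 6.40%.

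Each of the 9 exporters had the same direction in both lines, 4 higher (ABCC1, ABCC3, ABCC5 and ABCB6) and 5 lower (ABCB1, ABCG2, ABCC2, ABCC4 and ABCC10). Over all genes compared, 64.0% had the same sign in both lines, and each line had its own control. Both knockdown libraries bear the same siRNA label, si2. Loss of TMEM161A and other effects of that siRNA therefore cannot be told apart, in single lines or over both. The counting interval excluded an equal level in both lines and in the same direction for 7 exporters, against 36.0% of genes with a transcript of at least 500 bases. Of these, 3 were higher (ABCC1, ABCC3 and ABCC5), against 20.2% of genes, and 4 lower (ABCB1, ABCG2, ABCC2 and ABCC4), against 15.8%. In single lines the interval excluded an equal level for 7 exporters in HT29, against 66.3% of genes, and for 8 in LIM1215, against 63.7%. Whether such an interval excludes an equal level depends on the fragment count. The canonical transcripts of the exporters ran from 2980 to 6504 bases. The genes behind these shares, and behind that of the control comparison, were not matched to them for fragments. The sizes of the log2 ratios were also close between lines. The difference of the log2 ratios, LIM1215 minus HT29, ran from −0.24 (ABCB1) to 0.22 (ABCG2) and had a size of at most 0.12 for the other 7, though none of these differences was tested.

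No exporter passed the test over both lines. In limma, with the line as a block and the 2 pairs of libraries, 0 of the 9 had a Benjamini-Hochberg adjusted p under 0.05, against 1.95% of the genes compared (127 higher and 161 lower). TMEM161A itself passed, with a log2 ratio of −2.59 and an adjusted p of 0.0033. The exporter with the smallest adjusted p was ABCC3, higher by 0.40 ± 0.12 (SE, 2 of 2 pairs), with a 95% interval of 0.12 to 0.68 and an adjusted p of 0.138 in limma. ABCC1 was higher by 0.31 ± 0.12 and ABCC4 was at −0.39 ± 0.16 (SE), with limma adjusted p-values of 0.239 and 0.237. These 3 of the 9 exporters had an unadjusted limma p under 0.05, as did 2882 of the 14803 genes compared. ABCG2 had the largest value, −0.58 ± 0.26 (SE), with an interval of −1.20 to 0.05 and a limma adjusted p of 0.291. For the other 5 the limma adjusted p ran from 0.280 (ABCC5) to 0.969 (ABCC10). The error of this test is the difference between the responses of the 2 lines, with 1 residual degree of freedom, which limma draws toward the spread of other genes. That borrowed spread counts for 6.06 degrees of freedom, so the standard errors, intervals and p-values rest mostly on other genes. The test is weak, and a value that does not pass does not show an equal level.

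**Figure D3:**
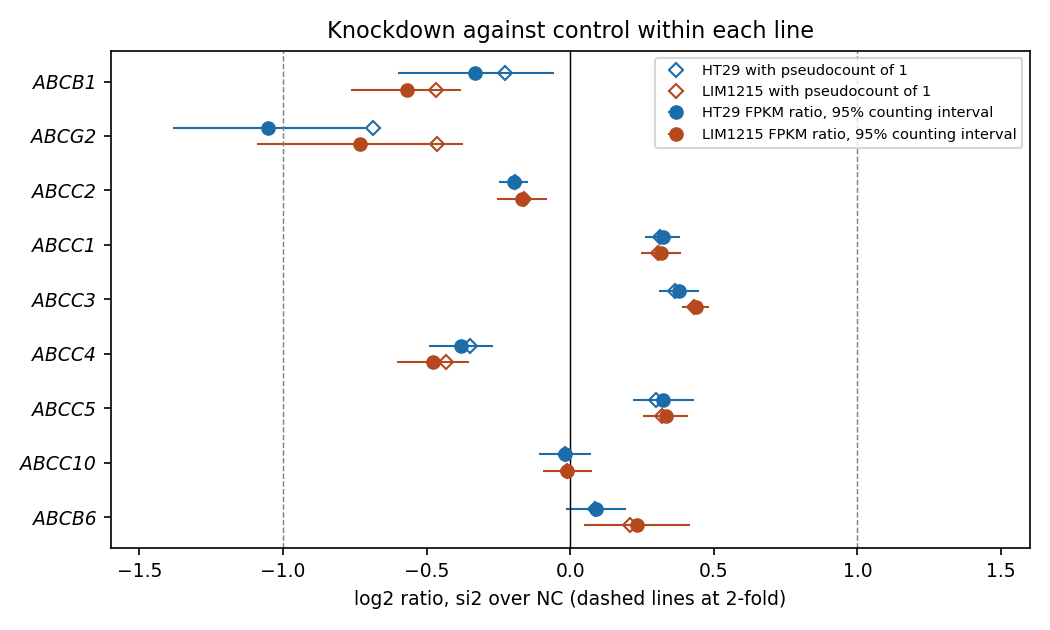
Log2 ratio of si2 over NC for each exporter in HT29 (blue) and LIM1215 (orange), 1 library per group, as the FPKM ratio with its 95% counting interval (filled circles) and with the pseudocount of 1 (open diamonds). ABCB1, ABCG2, ABCC2 and ABCC4 lie below 0 and ABCC1, ABCC3 and ABCC5 above 0 in both lines, with intervals clear of 0.

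The sign of the knockdown difference went with the base composition of the transcripts. ABCG2 (39.2% GC), ABCB1 (40.8%), ABCC4 (42.6%) and ABCC2 (44.9%) were lower, whereas ABCC5 (50.6%), ABCC1 (54.9%), ABCC3 (55.7%) and ABCB6 (59.1%) were higher. ABCC10, at 60.4% the richest in GC, was the exception, at −0.02 and −0.01. Across the 9 exporters, GC content and log2 ratio had a Pearson r of 0.758 for HT29 and 0.809 for LIM1215, with Spearman's rho at 0.717 and 0.700. Over 12295 coding genes the same r was 0.286 and 0.178, and rho 0.312 and 0.198. All 9 points of a line share the same pair of libraries.

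Medians over all coding genes went with GC content in the same sense. The median log2 ratio of the 2459 coding genes of lowest GC content, 1 of 5 equal groups, was −0.15 in HT29 and −0.08 in LIM1215, and that of the group of highest GC content 0.17 and 0.10. After the trend on GC content and transcript length over all genes was taken off, the HT29 and LIM1215 log2 ratios were −0.57 and −0.40 for ABCG2, −0.32 and −0.43 for ABCC4, and 0.24 and 0.33 for ABCC3. Those of ABCC1 were 0.18 and 0.20, down from 0.31 in both lines, and those of ABCC5 0.20 and 0.26, from 0.30 and 0.32. ABCC10 moved away from 0, to −0.17 and −0.12, and ABCB6 in LIM1215 went from 0.21 to 0.11. The direction was kept for 17 of the 18 knockdown values, the exception being ABCB6 in HT29, which went from 0.09 to −0.04. The part of base composition in the measured ratios was not tested beyond this.

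**Figure D4:**
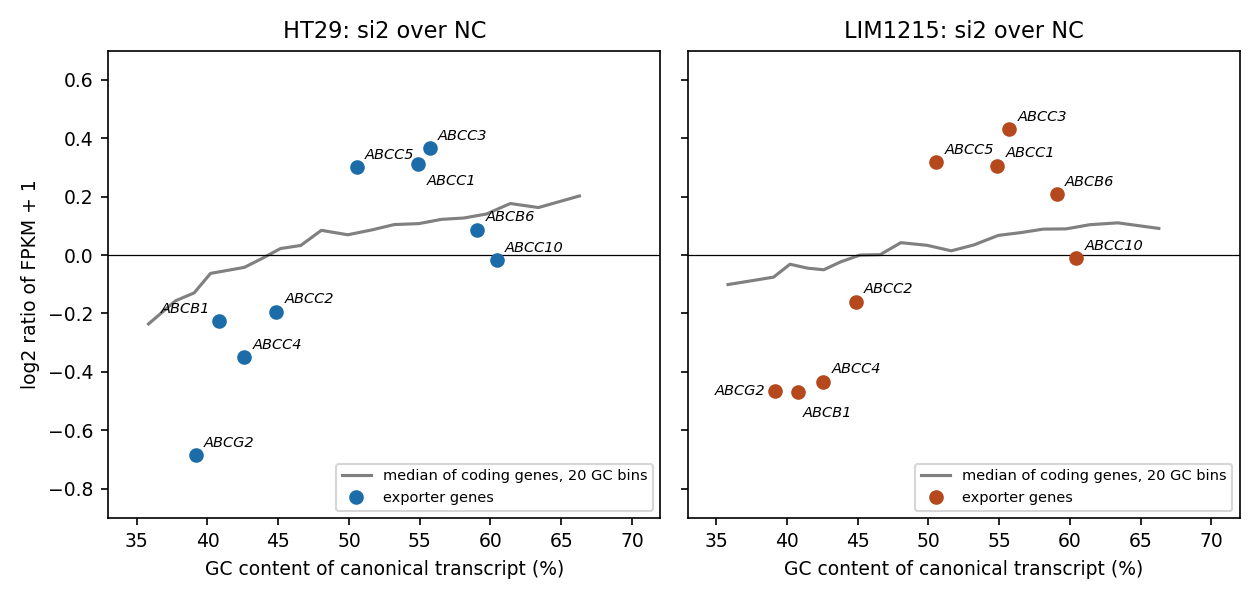
Log2 ratio of FPKM + 1, si2 over NC, against the GC content of the canonical transcript (%), for the 9 exporters (points) and the median of all coding genes in 20 bins of GC content (grey line), HT29 on the left and LIM1215 on the right. The 4 exporters under 45% GC lie below the line and ABCC5, ABCC1 and ABCC3 above it in both lines.

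By distance of the centred log2 levels over the 4 libraries, the coding genes nearest in pattern to ABCG2, among 12294 candidates, were PLK4, DPP4 and PRIM2. PLK4, the kinase of centriole duplication, had an FPKM of 30.5 in HT29 NC, 18.3 in HT29 si2, 25.6 in LIM1215 NC and 18.5 in LIM1215 si2, at a distance of 0.0285. DPP4, a brush border peptidase, lay at 0.0331 and PRIM2, a primase subunit, at 0.0634. The genes nearest to ABCB6 were ANKLE1 (0.0616), JCAD (0.0690) and KRTAP4-7 (0.0732). From HT29 NC to LIM1215 NC the FPKM went from 6.29 to 1.88 for ANKLE1, 4.19 to 1.01 for JCAD and 2.51 to 0.250 for KRTAP4-7. For ABCB6 it went from 24.2 to 8.47. The distances used FPKM plus the pseudocount of 1, which pulls low genes toward 0, so near genes can differ in their FPKM ratios. With only 4 libraries many genes lie close to any pattern.

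The other genes of the ABC superfamily and of drug handling were examined as 7 lists. Their counts past 2-fold are to be read beside the shares over all genes compared. Between the controls, 12.0% of genes were past 2-fold higher in LIM1215 and 7.42% lower. Under the knockdown, 3.80% passed 2-fold in either direction in HT29 and 3.46% in LIM1215. The counts of the lists were not tested against these shares. Of 39 further ABC genes, 19 passed the expression limit. In LIM1215 NC, 4 of these were past 2-fold higher and 1 lower than in HT29 NC. The largest were CFTR, the epithelial chloride channel, with an FPKM of 0.218 in HT29 NC and 7.58 in LIM1215 NC, ABCC6 with 0.453 and 3.63, and TAP1, a subunit of the peptide transporter of antigen presentation, with 25.95 and 73.7. ABCC6 has near-identical pseudogene copies and its level is uncertain. Under the knockdown 1 of the 19 passed 2-fold in HT29, ABCD3, a peroxisomal transporter of fatty acids, from 15.3 to 6.89 (log2 ratio −1.04), and none did in LIM1215, where ABCD3 went from 18.8 to 9.18 (−0.96).

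Among 25 regulators of exporter genes, 22 passed the limit. In the controls 5 were past 2-fold higher and 1 lower in LIM1215. HNF4A, which encodes a nuclear receptor of intestinal and hepatic differentiation, was at 0.0948 in HT29 NC and 44.7 in LIM1215 NC, and the vitamin D receptor gene VDR at 6.26 and 30.2. NR3C1, the glucocorticoid receptor gene, was the lower one, at 9.63 and 1.89. NR1I2, which encodes the xenobiotic receptor PXR, a known activator of ABCB1, was listed at 0 in both HT29 libraries and at no more than 0.116 in LIM1215. Under the knockdown 1 of 22 passed 2-fold in HT29, FOXO1, from 1.65 to 4.73 (1.11), and none in LIM1215, where it went from 2.45 to 3.11 (0.25). YBX1, which encodes a Y-box binding protein, was at 429 in HT29 NC and 717 in HT29 si2, and at 569 in LIM1215 NC and 743 in LIM1215 si2, short of 2-fold.

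Uptake carriers bring drugs into the cell, and 14 of 24 passed the limit. In the controls 4 were past 2-fold higher in LIM1215 and none lower. The largest were SLCO2B1 (0.530 and 26.5), SLCO3A1 (1.31 and 12.4) and SLC28A3 (0.151 and 2.09), in HT29 NC and LIM1215 NC respectively. Under the knockdown none passed 2-fold. The carriers' median was −0.00009 for HT29 and 0.21 for LIM1215, beside 0.04 and 0.02 over all genes.

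Of 31 genes that activate, degrade or are targets of the drugs used in colorectal cancer, 25 passed the limit. In the controls 6 were past 2-fold higher in LIM1215 and none lower. They included CES2, the carboxylesterase that activates irinotecan (15.2 in HT29 NC and 69.6 in LIM1215 NC), and GGH, a hydrolase of folate polyglutamates (40.8 and 161). UGT1A6 was listed at 0 in HT29 NC and at 3.62 in LIM1215 NC, but shares exons with other UGT1A genes and is uncertain. ATP7A, a copper pump that also handles platinum drugs, was the sole gene of this list past 2-fold in both lines under the knockdown. Its FPKM was 2.70 in HT29 NC and 0.584 in HT29 si2 (log2 ratio −1.23), and 3.01 in LIM1215 NC and 0.590 in LIM1215 si2 (−1.33). TYMP, thymidine phosphorylase, was past 2-fold higher in HT29, from 11.4 to 24.3 (1.03), and had a log2 ratio of 0.52 in LIM1215. The list's medians were 0.00 in HT29 and −0.26 in LIM1215.

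Glutathione and conjugation enzymes supply the substrates of the ABCC exporters, and 22 of 28 passed the limit. In the controls 6 were past 2-fold higher in LIM1215 and none lower. GSTM3 was listed at 0 in both HT29 libraries and at 76.6 in LIM1215 NC, GSTM4 was at 9.05 and 37.3, and MGST3 at 54.7 and 177. Members of the GSTM family are similar in sequence, so their split is uncertain. Under the knockdown none of the 22 passed 2-fold, and the medians were −0.004 in HT29 and −0.19 in LIM1215, beside 0.04 and 0.02 over all genes.

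Of 18 scaffold and trafficking genes that hold exporters at the membrane, 16 passed the limit, and 1, PDZD3, had no match. In the controls 3 were past 2-fold higher and 4 lower in LIM1215. The largest were lower: RDX, which encodes radixin, the anchor of ABCC2 in the apical membrane of hepatocytes, at 75.6 in HT29 NC and 14.8 in LIM1215 NC, MSN (moesin) at 90.9 and 26.1, and CAV1 at 325 and 107. All 19 haem and porphyrin genes passed the limit, and 1 was past 2-fold in the controls, SLC46A1, a folate and haem carrier, at 7.39 and 21.0. None of these 2 lists had a gene past 2-fold under the knockdown in either line.

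**Figure D5:**
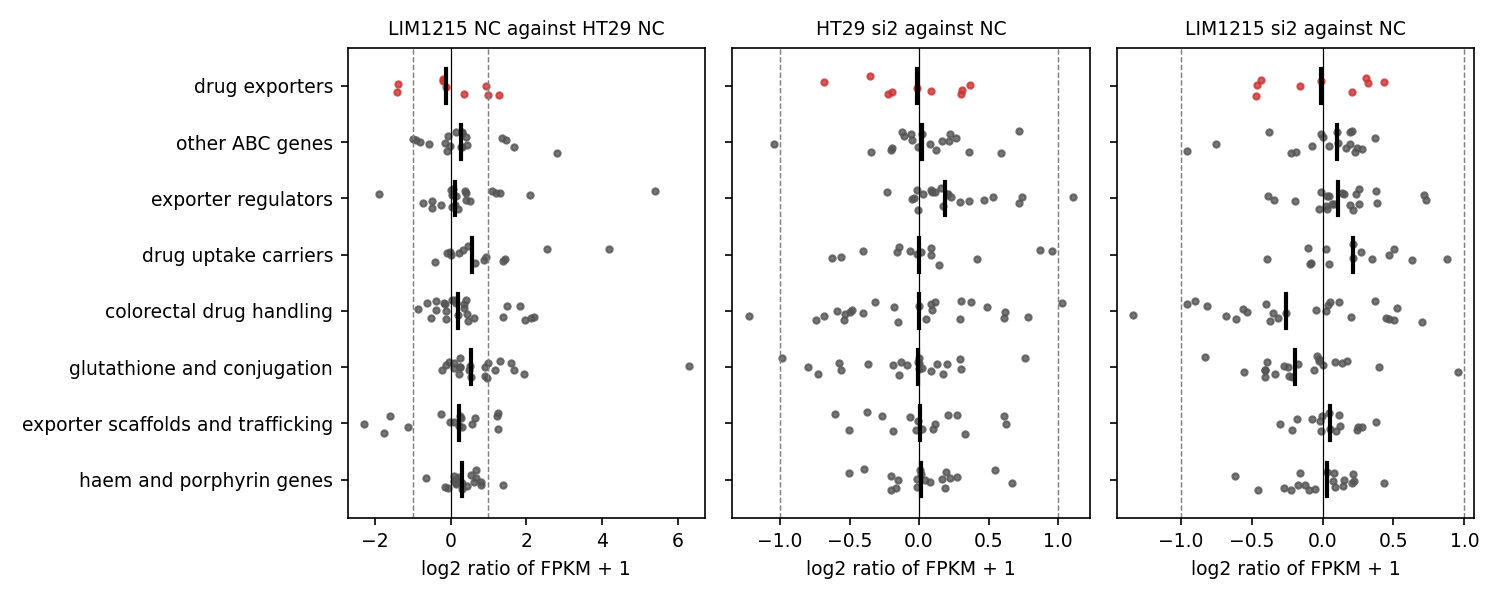
Log2 ratio of FPKM + 1 of the 9 exporters (red) and of the genes of the 7 related lists with a mean FPKM of at least 1 (grey), 1 row per list, with the list median as a black bar and dashed lines at 2-fold, for the control comparison and the knockdown in each line (1 library per group). The exporters spread to both sides of 0 in all 3 comparisons, and the points farthest to the right in the control comparison are GSTM3 and HNF4A.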

How the data were processed

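Total RNA went into a stranded mRNA library kit, per the labels' protocols. The submitters' processing notes name HISAT2 2.1.0, SAMtools 1.20, Cuffdiff, Cufflinks 2.2.1 and GRCh38. The annotation, and whether counting used the strand, are not given in the sources used here. The values used are the FPKM the authors deposited, 1 file per library, per the file headers. Since FPKM shares out the fragments of a library, abundant genes affect the level of the rest.

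Symbols, positions, transcript lengths and GC content were those of GENCODE release 44 (GRCh38), in which 56550 of 60658 identifiers were found. Each of the 9 members matched 1 identifier. Log2 ratios used a pseudocount of 1 and genes whose FPKM averaged at least 1 across the libraries. Fragments were estimated from the steps of low FPKM values in genes with 1 transcript of at least 500 bases. For the exporters this estimate took the length of the canonical transcript alone, though each has 5 to 18 annotated transcripts. Their fragment numbers and the widths of their intervals are therefore approximate. The depth and a length offset of 203 bases put 77.3% to 79.2% of low values no more than 0.03 from whole fragments. Intervals of ratios are exact Clopper-Pearson intervals, and those of levels exact Poisson intervals, both at 95% and for counting error only. The code was tested on simulated data. The test over both lines was limma 3.58.1 (R 4.3.3) on log2(FPKM + 1) of the genes compared, with terms for line and siRNA. The spread of each gene was drawn toward that of the other genes, with a trend of the spread with level. Python 3.11.15, numpy 2.4.6, pandas 2.3.3, scipy 1.17.1 and statsmodels 0.14.6 were used.

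Groups followed the sample titles. Named genes were the 9 members, TMEM161A, the 3 genes nearest in pattern to each of 2 members, and in each related list at most 3 genes past 2-fold per comparison. AHR, NR1I2 and YBX1 were singled out after their values were seen. The members and lists were chosen with earlier results of these data known, and 1 gene of the list of regulators is not reported here. Alternatives were other pseudocounts, filters, scalings and a 1.5-fold threshold. No pseudocount, and removal of the GC and length trend by lowess (fraction 0.3), and the limma test were added after seeing the data.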

Additional observations from a re-analysis of the deposited data

Results flagged for a closer look

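No exporter had opposite directions in the 2 lines under the knockdown. Among the related genes named, 6 did, and none of these differences was tested, since each line had 1 library per siRNA. Of the 14803 genes compared, 64.0% had the same sign in both lines, so genes without a shared sign were common. The log2 ratio of CFTR was 0.59 for HT29 and −0.75 for LIM1215 (LIM1215 minus HT29, −1.34), with an FPKM below 1 in both HT29 libraries. SLC28A3 had −0.16 and 0.63 (difference 0.79), SLCO3A1 −0.63 and 0.02 (0.65) and GGH −0.59 and 0.06 (0.65). MSN had 0.10 and −0.07, a difference of −0.17. HNF4A had −0.01 and 0.19 (0.20), with an FPKM near 0 in HT29.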

How the results depend on the processing

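Pairing the libraries by line gave 0 exporters with a limma adjusted p under 0.05, and 0 under each of 7 alternatives, whose smallest exporter adjusted p ran from 0.080 to 0.449. Leaving out 1 library would leave this fit no residual degrees of freedom. The number of exporters past 2-fold between the control libraries was 3 in the analysis reported, 4 with a pseudocount of 0.1 or after removal of the GC and length trend, and 5 with a 1.5-fold threshold or with no pseudocount. In HT29 the knockdown count was 0, but 1 (ABCG2) with a 1.5-fold threshold or with no pseudocount. Background shares at 1.5-fold were 38.0% between controls and 14.8% in HT29, and with no pseudocount 24.2% and 7.58%. Shares for the pseudocount of 0.1 and for the trend removal are not given here, so the count of 4 cannot be read against all genes. In LIM1215 the knockdown count was 0 under all 10 alternatives. Of 189 exporter ratios under 7 alternatives, 154 moved by less than the counting interval's half-width, 35 by more, and 1 changed sign (ABCB6 in HT29, to −0.04). ABCG2 moved most under the knockdown, from −1.05 with no pseudocount to −0.29 with a pseudocount of 5 in HT29. Rescaling FPKM to a common sum shifted the median control log2 ratio of all genes by −0.16, and no exporter changed direction. Depth limits ABCG2 most, which had the fewest estimated fragments of the 9 in each library.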
